A study of Mus musculus with 3 samples.

Results

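The 10 genes described here mark intraepithelial lymphocytes, the T cells that live between the epithelial cells of the gut. They were Gzma, Gzmb, Ccl5, Cd3d, Cd3e, Cd3g, Cd8a, Itgae, Cd7 and Nkg7, taken as a fixed list, and all 10 were found among 24130 genes with a symbol. Cells were sorted from the upper part of the small intestine of C57BL/6 mice, and polyadenylated RNA was sequenced from 3 libraries. Each group is 1 library, made from a pool of individual RNA samples. The library GIP-GFP came from reporter mice whose cells that make the incretin hormone GIP are green. Ngn3-TOMATO came from male mice that carry Ngn3-Cre and a ROSA26 LoxP-STOP-LoxP tomato reporter, in which the descendants of cells that expressed Ngn3, a transcription factor gene of enteroendocrine progenitors, are red. Ngn3-negative held the tomato-negative cells of that breeding, described as enterocytes, goblet cells and Paneth cells. The tomato sorts left out cells stained for CD45, the phosphatase on the surface of all white blood cells that Ptprc encodes. For the GIP-GFP sort the series' design text states no such gate, and neither the sex of those mice nor the number of mice in any pool is known here. Between GIP-GFP and either tomato sort, the gate, the mouse line and the group cannot be told apart. The tomato sorts share the gate and the breeding.

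Intraepithelial lymphocytes are mostly CD8 T cells that carry either the alpha-beta or the gamma-delta form of the T cell receptor. They are held in the epithelium by the integrin CD103, which binds E-cadherin on epithelial cells, and they are armed with granules of killing enzymes. Many of them carry CD8 as a pair of alpha chains, without the beta chain found on most CD8 T cells elsewhere. Among the listed genes, Cd3d, Cd3e and Cd3g encode the signalling chains of the receptor, Cd8a the alpha chain of CD8, and Itgae the alpha chain of CD103. Gzma and Gzmb encode granzymes, the proteases of the killing granule, Nkg7 a granule membrane protein, Ccl5 a secreted chemokine, and Cd7 a surface protein of T and NK cells.

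RUNX3 is a transcription factor of CD8 T cells. For 7 of the 10 genes a promoter sequence was at hand, credited to RefSeq with build GRCm38.p6. The 250 bases before the start of transcription in that source were searched on both strands for the RUNX core TGTGGT. That start can differ from the one of the transcript model measured here. For Gzmb, on the minus strand, the window reaches down to 56262335 and the model begins at 56262260. The 3 promoters that held it were those of the granule genes Gzma, Gzmb and Nkg7, and they are shown 5′ to 3′ because the granule genes open the results. Capitals mark the RUNX core or its reverse, ACCACA.
Gzma (chr13:113100982-113101231, minus strand): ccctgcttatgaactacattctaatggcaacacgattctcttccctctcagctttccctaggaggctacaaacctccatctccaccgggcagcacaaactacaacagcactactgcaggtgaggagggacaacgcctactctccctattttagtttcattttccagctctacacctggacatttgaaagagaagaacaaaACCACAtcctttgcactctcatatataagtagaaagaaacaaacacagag
Gzmb (chr14:56262335-56262584, minus strand): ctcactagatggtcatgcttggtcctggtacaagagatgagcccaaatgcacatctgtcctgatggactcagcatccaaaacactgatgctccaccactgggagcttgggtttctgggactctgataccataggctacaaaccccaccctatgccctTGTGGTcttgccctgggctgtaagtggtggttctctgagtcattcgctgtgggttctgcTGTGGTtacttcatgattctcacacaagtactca
Nkg7 (chr7:43436888-43437137, plus strand): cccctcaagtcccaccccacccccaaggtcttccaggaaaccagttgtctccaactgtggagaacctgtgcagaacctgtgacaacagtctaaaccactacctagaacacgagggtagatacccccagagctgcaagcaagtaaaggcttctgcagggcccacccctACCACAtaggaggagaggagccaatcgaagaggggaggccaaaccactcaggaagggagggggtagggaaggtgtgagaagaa
The core stood once in the Gzma window, at 2 places in the Gzmb window and once in the Nkg7 window. It occurred in 14.0% of 32851 promoter windows of the same length. The windows of Cd3d, Cd3e, Cd3g and Cd8a did not hold these letters. A T-box core, AGGTGTG, stood in the windows of Nkg7 and Cd3d and in 5.10% of all windows. An E-box, CAGCTG, which 13.0% of all windows held, and TATAAA, held by 12.4%, stood in none of the 7. These are matches of letters and not measured binding sites.

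All 10 genes were highest in GIP-GFP, intermediate in Ngn3-negative and lowest in Ngn3-TOMATO. By value, 9.64% of 13905 measured genes had this order. For 8 of the 10 the 3 counting intervals did not overlap, against 1.55% of all measured genes; the exceptions were Cd3d and Nkg7. In bulk libraries fewer cells of a type and less RNA per cell cannot be told apart. Levels are in scaled FPKM, the deposited FPKM divided by 1 common number, which keeps every ratio between libraries and corrects for transcript length. The range after each value is a 95% counting interval from the deposited limits, which covers counting and read assignment within that library but no variation among mice or among sorts. No library was repeated, so no difference has a replicate check and no test between groups is given.

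**Figure D1:**
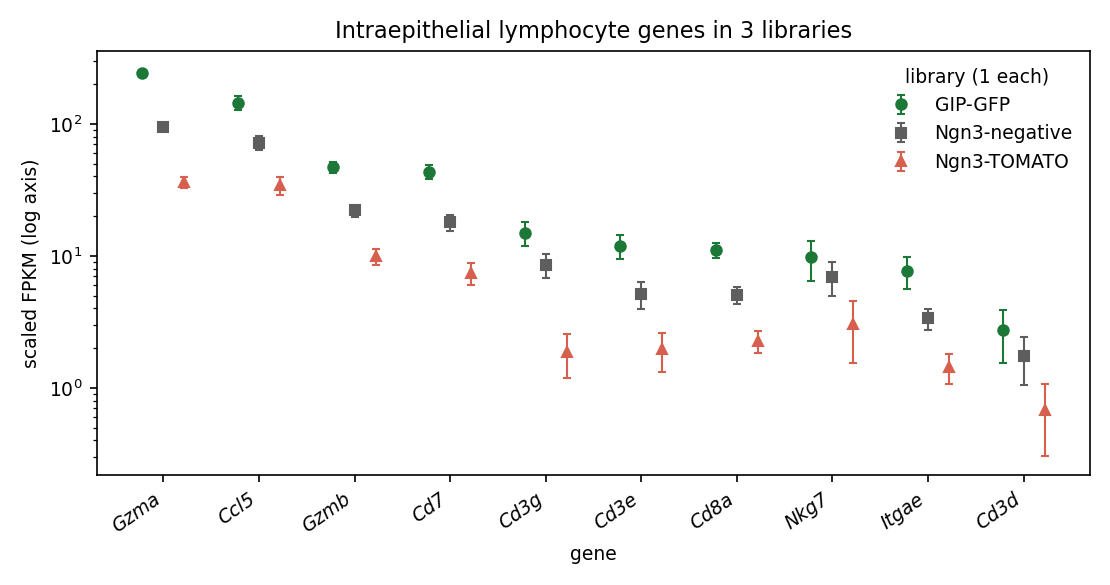
Level of each of the 10 genes in scaled FPKM on a log axis, with 1 point per library and bars for the 95% counting interval. In every gene GIP-GFP is highest and Ngn3-TOMATO lowest, and only for Cd3d and Nkg7 do neighbouring intervals overlap.

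The granzymes and the chemokine were the most abundant of the 10. Gzma (uc007rxc.1, chromosome 13, 113093827 to 113100981, mm10) stood at 242.7 scaled FPKM (229.4 to 255.9) in GIP-GFP, 94.4 (88.0 to 100.7) in Ngn3-negative and 36.0 (32.7 to 39.4) in Ngn3-TOMATO. In GIP-GFP it ranked 499th among all genes, in Ngn3-negative 1841st and in Ngn3-TOMATO 4610th. These values rest on 58.9, 41.5 and 21.1 kb of read bases in the same order. Gzmb (uc007ubv.1, chromosome 14, 56258858 to 56262260) stood at 47.1 (42.5 to 51.6), 22.1 (19.8 to 24.4) and 9.91 (8.58 to 11.2) in the same order of libraries. Ccl5 (uc007kpi.2, chromosome 11, 83525779 to 83530518) stood at 145.0 (128.3 to 161.8), 72.2 (63.5 to 80.8) and 34.1 (28.9 to 39.4). Gzma and Ccl5 together made up 72.3% of the summed level of the 10 genes in GIP-GFP, 70.1% in Ngn3-negative and 71.1% in Ngn3-TOMATO. For none of these 3 genes did the intervals of any pair of libraries overlap. Nkg7 (uc009gmq.1, chromosome 7, 43437138 to 43438246) was lower than those 3 genes, at 9.76 (6.50 to 13.0), 6.97 (4.9998 to 8.94) and 3.03 (1.54 to 4.52). Its GIP-GFP and Ngn3-negative intervals overlapped.

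The receptor chains were lower in abundance and kept the same order. Cd3g (uc009pex.2, chromosome 9, 44969572 to 44980431) stood at 15.0 scaled FPKM (11.9 to 18.0) in GIP-GFP, 8.56 (6.83 to 10.3) in Ngn3-negative and 1.87 (1.18 to 2.57) in Ngn3-TOMATO. Cd3e (uc009pez.1, chromosome 9, 44998743 to 45009590) stood at 11.9 (9.40 to 14.3), 5.13 (3.96 to 6.31) and 1.97 (1.33 to 2.60). Cd3d (uc009pey.2, chromosome 9, 44981786 to 44987052), which starts 1355 bases from Cd3g on the opposite strand, stood at only 2.73 (1.54 to 3.92), 1.74 (1.04 to 2.44) and 0.683 (0.304 to 1.06). It was the least abundant of the 10 in every library, and both neighbouring pairs of its intervals overlapped. Its values rest on 1.00, 1.16 and 0.606 kb of read bases.

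The coreceptor and surface genes had the same order of libraries. Cd8a (uc009cgs.1, chromosome 6, 71373427 to 71379171) stood at 11.1 scaled FPKM (9.60 to 12.5) in GIP-GFP, 5.03 (4.30 to 5.77) in Ngn3-negative and 2.25 (1.83 to 2.68) in Ngn3-TOMATO. Cd7 (uc007mvc.2, chromosome 11, 121036749 to 121039478) stood at 43.3 (37.9 to 48.8), 18.0 (15.5 to 20.5) and 7.41 (5.99 to 8.84). Itgae (uc011xyn.1, chromosome 11, 73090595 to 73147449) stood at 7.71 (5.65 to 9.77), 3.36 (2.76 to 3.96) and 1.44 (1.07 to 1.82). None of these genes had overlapping intervals. Itgae was split over 3 transcript models, and its most abundant model was listed at 0 in Ngn3-negative. The kinase gene Haspin lies inside the Itgae locus on the opposite strand, and whether the counting used strand is not stated in the labels. Haspin stood at 8.01, 14.0 and 6.42 in GIP-GFP, Ngn3-negative and Ngn3-TOMATO, a different order from that of Itgae.

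GIP-GFP was next compared with Ngn3-negative, the other epithelium. All 10 genes were higher in GIP-GFP, by a plain ratio of levels between 1.40 (Nkg7) and 2.57 (Gzma), with a median of 2.16. The log2 ratio after adding 1 to each value, which understates the difference for low genes, had a median of 1.00 over the 10 genes and of 0.07 over all 13444 genes measured. It was 1.35 (1.23 to 1.48) for Gzma, 1.22 (0.96 to 1.48) for Cd7 and 1.05 (0.86 to 1.25) for Gzmb. The interval lay above 0 for 8 of the 10, and included 0 for Cd3d (-0.14 to 1.03) and Nkg7 (-0.13 to 1.00). The same count over all genes was not made. On this scale 4 genes were at least 2-fold higher (Gzma, Gzmb, Cd3e and Cd7), where 21.1% of all genes were. None was 2-fold lower, against 13.8% of all genes. Ccl5, Cd8a and Itgae lay just short of 2-fold, and under other settings the count of 4 moved between 2 and 7. At the count of 2, with a pseudocount of 5 or with equal totals, Gzmb (0.94 and 0.85) and Cd3e (0.73 and 0.89) were under the 2-fold limit.

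Ngn3-TOMATO was then compared with Ngn3-negative, the tomato-positive and tomato-negative sorts of the same breeding. All 10 genes were lower in Ngn3-TOMATO, with plain ratios from 0.219 (Cd3g) to 0.473 (Ccl5) and a median of 0.421. The median log2 ratio was -1.05, against 0.03 over all 13423 genes, and the interval lay below 0 for all 10. How many of all genes had an interval below 0 was not counted. Cd3g was farthest from 0 at -1.73 (-2.17 to -1.30), followed by Gzma at -1.36 (-1.53 to -1.20) and Cd7 at -1.18 (-1.49 to -0.87). At least 2-fold lower were 6 of the 10 (Gzma, Gzmb, Ccl5, Cd3e, Cd3g and Cd7), beside 9.98% of all genes, and none was 2-fold higher, beside 19.2%. Of all 2-fold differences in this comparison 65.8% were in the higher direction, and 53.2% after scaling each library to the same total. With a pseudocount of 0.1 in place of 1 all 10 genes were at least 2-fold lower, and with 5 only 1 was.

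**Figure D2:**
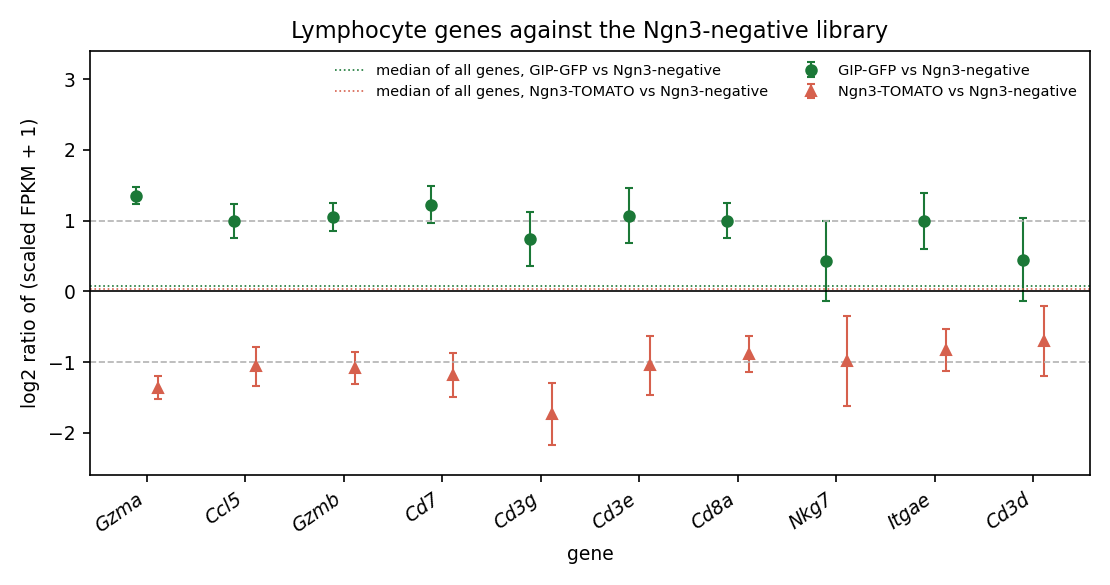
Log2 ratio of scaled FPKM plus 1 against Ngn3-negative for each gene, circles for GIP-GFP and triangles for Ngn3-TOMATO, with bars for the 95% counting interval. Dashed lines mark 2-fold and dotted lines the median of all genes (0.07 and 0.03); every circle lies above 0 and every triangle below it. Both sets of points share the Ngn3-negative library.

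Between the reporter libraries the difference was larger. All 10 genes were at least 2-fold higher in GIP-GFP than in Ngn3-TOMATO, where 8.06% of 13709 genes were, and none was 2-fold lower, beside 8.77%. With a pseudocount of 5 the count was 7, without Cd3d (0.44), Itgae (0.98) and Nkg7 (0.88). The median log2 ratio was 2.09, against 0.08 over all genes. Gzma led with 2.72 (2.57 to 2.87), and Cd3g followed with 2.47 (2.03 to 2.92) and Cd7 with 2.40 (2.10 to 2.70). Cd3d, at 1.15 (0.58 to 1.71), and Nkg7, at 1.42 (0.73 to 2.11), were nearest to 0. The summed level of the 10 genes was 536.2 scaled FPKM in GIP-GFP, 237.5 in Ngn3-negative and 98.7 in Ngn3-TOMATO, which is 0.0516%, 0.0264% and 0.00930% of all gene values.

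Ratios between genes inside a library do not depend on how libraries are scaled. The mean of Cd3d, Cd3e and Cd3g differed 6.53-fold between the highest and the lowest library (9.85, 5.14 and 1.51 scaled FPKM in GIP-GFP, Ngn3-negative and Ngn3-TOMATO). Relative to that mean, Gzma stood at 24.6 (21.2 to 28.6) in GIP-GFP, 18.4 (15.7 to 21.5) in Ngn3-negative and 23.9 (18.7 to 30.5) in Ngn3-TOMATO. Cd7 stood at 4.40 (3.65 to 5.30), 3.50 (2.87 to 4.28) and 4.91 (3.66 to 6.61), and Cd8a at 1.12 (0.927 to 1.36), 0.979 (0.798 to 1.20) and 1.49 (1.11 to 2.00). For 6 of the 7 genes outside the CD3 chains the intervals of all 3 libraries overlapped, and the highest and lowest ratios lay within 1.34-fold (Gzma) to 2.02-fold (Nkg7) of each other. Overlapping intervals do not show that the ratios were equal. All 7 ratios share the CD3 mean, whose own counting error widens each interval, so the overlaps are not separate observations. The same count over all genes was not made. Relative to Ptprc, only Cd3d and Nkg7 of the listed genes had overlapping intervals in all 3 libraries. Relative to the CD3 mean, the exception among the 7 was Ccl5, at 14.7 (12.3 to 17.6), 14.0 (11.6 to 16.9) and 22.6 (17.2 to 29.7). Its interval in Ngn3-TOMATO lay above that in Ngn3-negative. The ratio of Gzma to Gzmb, which needs no CD3 value, was 5.16 (4.62 to 5.76), 4.26 (3.77 to 4.82) and 3.64 (3.09 to 4.28), and the GIP-GFP and Ngn3-TOMATO intervals did not overlap.

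**Figure D3:**
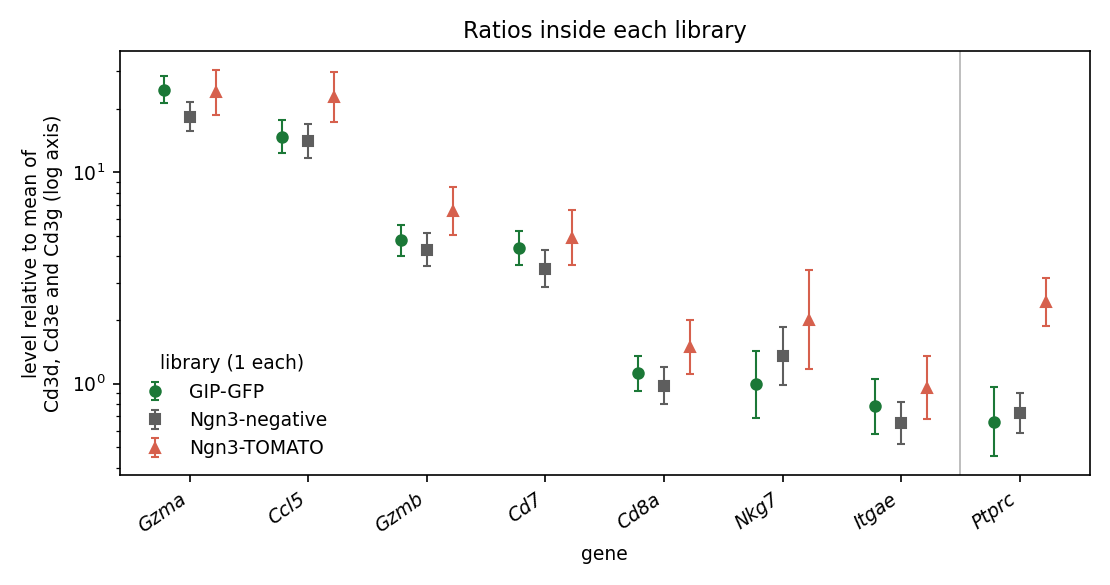
Level of each gene divided by the mean of Cd3d, Cd3e and Cd3g of the same library, on a log axis, with bars for the 95% counting interval. The 7 lymphocyte genes on the left lie within 2.02-fold across libraries, whereas Ptprc, on the right, stands at 2.44 in Ngn3-TOMATO and at 0.662 and 0.725 in the others.

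Ptprc, the gene of the gated protein CD45, did not follow the 10 genes in Ngn3-TOMATO. It stood at 6.52 scaled FPKM (4.25 to 8.80) in GIP-GFP, 3.73 (3.12 to 4.34) in Ngn3-negative and 3.68 (3.19 to 4.18) in Ngn3-TOMATO, and it was spread over 6 transcript models. Relative to the CD3 mean it stood at 0.662 (0.455 to 0.964), 0.725 (0.583 to 0.900) and 2.44 (1.88 to 3.17), so that only Ngn3-TOMATO was set apart. Of 18 genes common to all leukocytes, 16 were measured between GIP-GFP and Ngn3-negative. None was 2-fold higher and 1, the signalling gene Vav1, was 2-fold lower (2.32 against 7.30), beside 21.1% and 13.8% of all genes. Their median log2 ratio was 0.15. Under equal totals it was -0.02, and 3 were 2-fold lower. The most abundant were the phosphatase gene Ptpn6, at 30.6, 34.1 and 53.4 in GIP-GFP, Ngn3-negative and Ngn3-TOMATO, and the actin-bundling gene Lcp1, at 10.9, 13.1 and 9.94. Farthest in the higher direction was Arhgap45, at 2.78 against 1.20. Summed over the 18, the level was 111.5, 116.7 and 122.8 in that order of libraries. How far epithelial cells contributed to these genes was not tested.

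Genes that tell T cell subsets apart were read next, and those named here were chosen after their values were seen. Cd8b1, the beta chain of CD8, stood at 0.588 scaled FPKM (0.0621 to 1.11) in GIP-GFP, 0.251 (0 to 0.502) in Ngn3-negative and 0.0472 (0 to 0.142) in Ngn3-TOMATO. Cd8a was thus 18.8 times (7.62 to 46.5) the level of Cd8b1 in GIP-GFP. In the tomato sorts the Cd8b1 interval reached 0, so no ratio is given. Cd4, the coreceptor of helper T cells, stood at 0.679 (0 to 1.61) and 0.0246 (0 to 0.0931) in GIP-GFP and Ngn3-negative and was listed at 0 in Ngn3-TOMATO. The 3 constant genes of the gamma chain, Tcrg-C1, Tcrg-C2 and Tcrg-C4, summed to 32.4 (27.2 to 37.7), 11.9 (9.44 to 14.3) and 5.66 (4.19 to 7.14) in GIP-GFP, Ngn3-negative and Ngn3-TOMATO. The beta chain constant genes Trbc1 and Trbc2 summed to 15.6 (11.0 to 20.2), 7.26 (5.22 to 9.30) and 2.70 (1.504 to 3.89). Receptor genes are near-identical copies with rearranged transcript models that share reads, so the split within a chain is uncertain. Both chains had the order of libraries seen in the 10 genes.

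Of 15 genes of T cell lineage found in the files, 10 were measured between GIP-GFP and Ngn3-negative. At least 2-fold higher were 5, or 3 under equal totals, and 1 was lower, beside 21.1% and 13.8% of all genes. The most abundant were transcription factor genes with high levels in all libraries, Zbtb7b, at 52.4, 125.0 and 89.2 in GIP-GFP, Ngn3-negative and Ngn3-TOMATO, and Sox13, at 82.2, 38.7 and 46.4. Zbtb7b was also the member farthest below Ngn3-negative and Tcrg-C4, at 9.30 against 2.67, the one farthest above. Of 20 receptor signalling genes 9 were measured and all 9 were higher in GIP-GFP. All 9 reached 1 scaled FPKM in GIP-GFP but only 4 did in Ngn3-negative, so the filter fixed the direction for the rest. The 2 past 2-fold, Fyn and the adaptor gene Trat1, are a share close to the 21.1% of all genes. Fyn, a kinase gene not restricted to T cells, stood at 12.0, 2.15 and 12.8 and so was as high in Ngn3-TOMATO. Lck, the kinase of the CD4 and CD8 coreceptors, stood at 6.55 (4.74 to 8.36), 3.48 (2.45 to 4.51) and 2.09 (1.43 to 2.74). Cd247, which encodes the zeta chain of the same receptor, was listed at 0 in all 3 libraries, which in these files can be a failed estimate.

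Killing and NK-type genes were compared in the same way. Of 16 cytotoxic effector genes 8 were measured between GIP-GFP and Ngn3-negative, with a median log2 ratio of 1.00. At least 2-fold higher were 4, or 3 under equal totals, and 1 was lower, beside 21.1% and 13.8% of all genes. All 8 reached 1 scaled FPKM in GIP-GFP but only 5 did in Ngn3-negative, so the filter fixed the direction for the rest. Srgn, the proteoglycan that packs granules, stood at 14.7 (11.3 to 18.2) in GIP-GFP, 6.35 (4.61 to 8.10) in Ngn3-negative and 2.02 (1.18 to 2.86) in Ngn3-TOMATO. The granzyme B inhibitor gene Serpinb9 was the farthest above at 11.2 against 2.85, and stood at 7.73 in Ngn3-TOMATO. The death ligand gene Tnfsf10 was the most abundant and the farthest below, at 14.9, 44.1 and 12.6. Prf1, the pore protein of the killing granule, was under 1 scaled FPKM in all 3 libraries. Of 18 NK-type receptor genes 6 were measured and all 6 were higher in GIP-GFP. How many of all genes were higher by any amount was not counted. Past 2-fold were 2 of the 6, the adaptor genes Tyrobp and Fcer1g, beside 21.1% of all genes. Fcer1g stood at 37.8 (30.7 to 44.9), 6.55 (4.43 to 8.68) and 4.71 (3.12 to 6.30), a log2 ratio to Ngn3-negative of 2.36, larger than that of any of the 10 genes. Hcst, an adaptor of activating receptors, stood at 11.2, 6.53 and 4.76, with wide intervals that overlapped (4.65 to 17.7, 3.27 to 9.80 and 2.30 to 7.22).

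In the homing, cytokine receptor and transcription factor lists several abundant members did not have the order of the 10 genes. Of 17 chemokine and homing genes 11 were measured between GIP-GFP and Ngn3-negative. At least 2-fold higher were 4, or 3 under equal totals, and none was lower, beside 21.1% and 13.8% of all genes. All 11 reached 1 scaled FPKM in GIP-GFP but only 8 did in Ngn3-negative, so the filter fixed the direction for the rest. Itga4, an integrin alpha chain, stood at 83.2, 0.644 and 25.8 in GIP-GFP, Ngn3-negative and Ngn3-TOMATO, and the receptor gene Gpr55 at 17.9, 5.99 and 15.9. Itgb7, the beta chain that pairs with CD103, stood at 3.57 (2.63 to 4.51), 1.92 (1.44 to 2.41) and 18.5 (17.1 to 19.8) and so did not have the order of Itgae. Gpr18 was the member farthest below, at 1.17 against 1.69, with overlapping intervals. Of 15 cytokine receptor genes 8 were measured. Only Tigit, an inhibitory receptor (2.05 against 0.393), was past 2-fold, beside 21.1% of all genes that were 2-fold higher. With either of 2 other scalings (the median ratio, or totals that leave out the 20 most abundant genes) 2 genes were past it. All 8 reached 1 scaled FPKM in GIP-GFP but only 4 did in Ngn3-negative, so the filter fixed the direction for the rest. The rest included Tigit. Il18r1 stood at 2.91, 0.958 and 32.9 and the kinase gene Jak3 at 5.86, 5.08 and 6.61. Of 14 transcription factor genes 9 were measured, with 4 at least 2-fold higher and 2 lower, beside 21.1% and 13.8% of all genes. Under equal totals 2 were higher and 2 lower, and without the 20 most abundant genes in the totals 4 were higher and 1 lower. Id2 stood at 206.2, 87.8 and 569.0, Ets1 at 50.6, 2.94 and 54.9 and Runx1 at 0.429, 2.18 and 2.47. Runx3 was under 1 scaled FPKM in every library (0.782, 0.565 and 0.278).

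Among 11759 genes outside the list that reached 5 scaled FPKM in at least 1 library, the 8 closest in pattern to the mean of the 10 were Klrd1, Tcrg-C2, Tcrg-C1, Tcrg-V7, Trdj2, Srgn, Rgs1 and Ctsw. Closeness was the Euclidean distance between log2 levels centred over the 3 libraries, and 3 libraries allow many genes to look alike. The distances ran from 0.0802 for Klrd1 to 0.268 for Ctsw, and those of the 9 listed genes that reached the same level from 0.0468 to 0.498. Klrd1, which encodes the NK receptor chain CD94, stood at 9.61 (6.71 to 12.5) in GIP-GFP, 5.02 (3.39 to 6.65) in Ngn3-negative and 1.71 (0.875 to 2.55) in Ngn3-TOMATO. Tcrg-V7 and Trdj2 are gene segments of the gamma and delta receptor chains, at 19.3, 9.53 and 3.23 and at 10.02, 5.61 and 1.53 in the same order. Rgs1, a regulator of G protein signalling in lymphocytes, stood at 20.99, 13.9 and 5.09, and Ctsw, a protease gene of killer cells, at 7.72, 3.67 and 1.73.

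Epithelial genes that signal to intraepithelial lymphocytes had another order, with Ngn3-negative highest for most. Of 18 such genes 17 were measured between GIP-GFP and Ngn3-negative, with a median log2 ratio of -1.39. In GIP-GFP 11 were at least 2-fold lower and 2 higher, beside 13.8% and 21.1% of all genes. Between Ngn3-TOMATO and Ngn3-negative 8 of 17 were at least 2-fold lower and 1 higher, beside 9.98% and 19.2% of all genes. The 1 became 2 with the median ratio and with totals that leave out the 20 most abundant genes. The median in this comparison was -0.96. Between the reporter libraries the median was -0.06, with 1 lower and 2 higher of 16, beside 8.77% and 8.06% of all genes. Il15, the cytokine that keeps these lymphocytes alive, stood at 9.56 scaled FPKM (6.46 to 12.7) in GIP-GFP, 95.7 (87.6 to 103.9) in Ngn3-negative and 11.3 (9.16 to 13.5) in Ngn3-TOMATO. Il15ra, the chain that presents it, had another order, at 73.5 (66.7 to 80.3), 27.2 (24.0 to 30.4) and 23.6 (21.5 to 25.6). Ccl25, the chemokine that draws T cells to the small intestine, stood at 249.1, 1033 and 253.4. Btnl1, a butyrophilin-like gene that selects gamma-delta cells of the gut, stood at 63.1, 272.3 and 61.3, and its partner Btnl6 at 84.8, 223.5 and 96.4. H2-T3, the ligand of the CD8 alpha pair, stood at 41.3, 196.5 and 39.6, and belongs to a family of close copies that can share reads. Cdh1, the E-cadherin bound by CD103, was close in all 3 at 450.7, 442.9 and 488.1. Cd1d1, which presents lipids to T cells, was farthest above Ngn3-negative, at 20.4, 1.17 and 9.22. Those named here beyond Ccl25, Cdh1, Cd1d1 and Il15 were chosen after their values were seen.

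**Figure D4:**
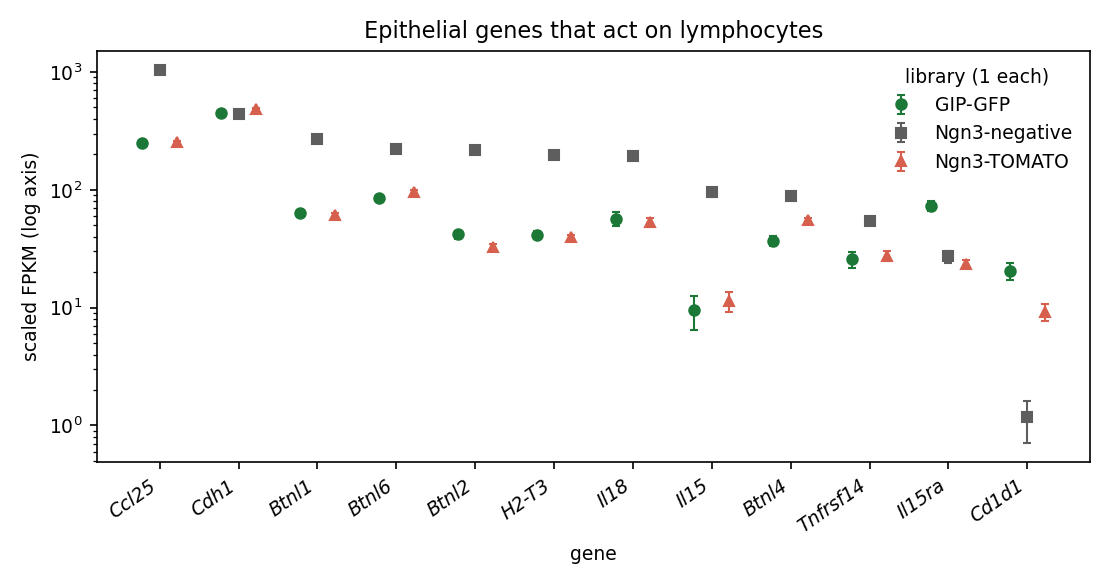
Level of 12 epithelial genes that act on lymphocytes, in scaled FPKM on a log axis, with 1 point per library and bars for the 95% counting interval. The 12 are a chosen part of the 18 listed. Among those not shown, Cxcl16 was highest in Ngn3-TOMATO (39.0, against 19.2 in Ngn3-negative and 3.76 in GIP-GFP). Ngn3-negative is highest for 9 of the 12 shown, including Ccl25 (1033), Btnl1 (272.3) and Il15 (95.7), while Cdh1 is close in all 3 and Il15ra and Cd1d1 are highest in GIP-GFP.

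Read bases came to 592.1 Mb in GIP-GFP, 1030 Mb in Ngn3-negative and 1380 Mb in Ngn3-TOMATO, so the lowest values of the 10 genes came from the deepest library. Gip itself stood at 241033, 728.4 and 27974 scaled FPKM and the epithelial surface gene Epcam at 1089, 1734 and 1315. Relative to Epcam, the summed level of the 10 genes was 49.2%, 13.7% and 7.51%. Of 14 epithelial identity genes 6 were 2-fold lower in GIP-GFP than in Ngn3-negative, beside 13.8% of all genes. The 6 became 8 under equal totals and 5 without the 20 most abundant genes in the totals. The median log2 ratio of the 14 genes was -0.93. Their most abundant members were Lgals4 (1744, 3688 and 3567) and Krt19 (668.9, 2245 and 2105), Krt20 was farthest below (277.1 against 1254), and Krt18 was the only member above 0 (423.1 against 407.9). Of 12 B cell and plasma cell genes 4 were measured, with a median of -0.02, which was -0.28 under equal totals and 0.06 without the 20 most abundant genes in the totals. Cd79b stood at 1.46, 3.34 and 1.86, and Ighm at 6.09 in GIP-GFP and was listed at 0 in the others. Of 20 myeloid and mast cell genes 7 were measured, with 3 at least 2-fold higher and 3 lower, beside 21.1% and 13.8% of all genes. All 7 reached 1 scaled FPKM in GIP-GFP but only 5 did in Ngn3-negative, so the filter fixed the direction for the rest. Among macrophage genes Adgre1 and Csf1r were under 1 scaled FPKM in all libraries. C1qa stood at 0.171, 0.0834 and 10.7, while C1qb was listed at 0 in all 3, Cd68 at 2.90, 5.17 and 4.55 and Cd14 at 2.46, 6.66 and 4.70. Lyz2 stood at 10.5, 2.07 and 4.44, Siglecf at 4.58, 12.8 and 26.2, Itgam at 1.96, 6.88 and 3.05, and the mast cell protease gene Mcpt1 at 4.78 and 1.72 in GIP-GFP and Ngn3-TOMATO and listed at 0 in Ngn3-negative. The blood and stroma list was led by the globin genes Hbb-bs (23.4, 154.9 and 45.0) and Hba-a1 (5.21, 39.9 and 8.86), with Pecam1 farthest above (1.97 against 0.342). The part of other cells in the levels of the 10 genes was not tested.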

How the data were processed

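Messenger RNA was measured in 3 pooled libraries, 1 per group, and groups were taken from the sample titles. Per the submitters' processing notes, FastQC, TopHat 1.5.0 and Cufflinks were used with genome build mm10. Each of 59120 UCSC transcript models was deposited, per the file headers, with its length in bases, its coverage (a signal of mean read depth per base) and its FPKM with a lower and an upper limit. Summed over transcripts, FPKM came to about 1.016e+10 (GIP-GFP), 1.037e+10 (Ngn3-negative) and 1.074e+10 (Ngn3-TOMATO). Such sums are far above those of usual FPKM, and the library term behind them is unknown here.

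Symbols came from GENCODE M21 (build GRCm38, the sequence of mm10): models were compared by transcript ends (within 5 bases), overlap (share of at least 0.5) and spliced length, ignoring strand, and 51392 received one. FPKM of transcripts of at least 200 bases were summed per symbol, without mitochondrial genes, and divided by 8164, which makes the mean library total 1000000. Values too abundant for the quantification (status HIDATA, at most 9 transcripts in a library and none of the 10 genes) were treated as missing. A gene counted as measured if either library of a comparison reached 1 scaled FPKM, and log2 ratios used a pseudocount of 1. Intervals are 2 standard errors, taken from the deposited upper limit. Read bases are coverage times length. Python 3.11.15, pandas 2.3.3, numpy 2.4.6 and matplotlib 3.10.9 were used, and the interval and fold calculation was tested on simulated data. Coordinates are 1-based on mm10 and belong to each gene's most abundant model.

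The 10 genes and the 13 other lists were chosen with earlier results of these data known. All 10 are given. Of each other list the 2 most abundant members and the member farthest from 0 in each direction between GIP-GFP and Ngn3-negative are named, with the 8 genes closest in pattern; 1 gene that this rule picks is not reported here. Any other gene named was chosen after its values were seen. The alternatives were pseudocounts of 0.1 and 5, no filter, 3 other scalings, the most abundant transcript, no length minimum, and matches that share a transcript end.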

Additional observations from a re-analysis of the deposited data

How the results depend on the processing

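The order of GIP-GFP above Ngn3-negative above Ngn3-TOMATO held for all 10 genes under 8 of the 9 other settings. This order does not use the pseudocount or the filter, so the settings that change those could not alter it. With only the most abundant transcript it held for 9: Itgae had a log2 ratio of 1.19 for Ngn3-TOMATO against Ngn3-negative, because its most abundant model was listed at 0 in Ngn3-negative, and 1 gene was then 2-fold higher in that comparison. The median over the 10 genes ran from 0.71 to 1.15 for GIP-GFP against Ngn3-negative, from -1.26 to -0.72 for Ngn3-TOMATO against Ngn3-negative and from 1.41 to 2.29 between the reporter libraries, the value of 1.41 with a pseudocount of 5. Counts past 2-fold moved more, since several genes lie near that limit. For GIP-GFP against Ngn3-negative the 4 genes at least 2-fold higher became 7 with a pseudocount of 0.1, with the median ratio and with equal totals without the 20 most abundant genes, and 2 with a pseudocount of 5 and with equal totals. For Ngn3-TOMATO the 6 genes at least 2-fold lower became 10 with a pseudocount of 0.1, 1 with 5, and 3 with equal totals without the 20 most abundant genes. Over all genes a pseudocount of 5 gave 1783 in place of 2832 higher in GIP-GFP and 1496 in place of 2581 higher in Ngn3-TOMATO than in Ngn3-negative. Between the reporter libraries it gave 599 in place of 1105 higher and 672 in place of 1202 lower. Equal totals moved the median log2 ratio of all genes from 0.07 to -0.13 for GIP-GFP and from 0.03 to -0.20 for Ngn3-TOMATO against Ngn3-negative. No paired analysis was possible because each group holds 1 library. Depth limits Cd3d most, whose values rest on about 1 kb of read bases or less.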
